A study of Mus musculus with 6 samples.

Results

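The hepatocyte transcription factors examined here are 9 genes, Hnf4a, Foxa1, Foxa2, Foxa3, Cebpa, Cebpb, Onecut1, Prox1 and Nr5a2. They were measured in liver tumours of 3 wild-type (WT) and 3 Alb/AEG-1 transgenic male mice, with 1 Affymetrix array per mouse. Every probe set of the deposited expression matrix whose single platform gene symbol was 1 of these 9 was taken, which gave 17 of 22626 probe sets. Hnf4a and Nr5a2 had 4 each, Cebpb and Onecut1 had 2 each, and the other genes had 1.

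All 6 mice, WT and Alb/AEG-1 alike, had received the liver carcinogen N-nitrosodiethylamine (DEN) in 1 intraperitoneal dose of 10 µg per g body weight when 14 days old. Tumours were collected when the mice were 28 weeks old, so the group comparison is between tumours, and no untreated liver is among the samples. The labels give CD-1 as the background strain of every mouse. They describe the transgene as a 5.3-kb fragment of a construct named Alb/AEG-1, injected into embryos of B6CBAF1/J parents. AEG-1 (astrocyte elevated gene-1) is the protein encoded by Mtdh, and Alb is the symbol of the albumin gene. The labels do not state the promoter or how many transgenic lines were used. They also do not say whether an array holds 1 nodule or several.

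These factors hold the hepatocyte state together. HNF4A is a nuclear receptor that drives much of the secretory and metabolic programme, the FOXA proteins open chromatin at liver genes, and the C/EBP proteins are leucine zipper factors of metabolism and the acute phase response. ONECUT1 acts in liver and bile duct development, PROX1 is a homeobox corepressor, and NR5A2 is a nuclear receptor of bile acid and lipid genes. The factors bind each other's regulatory regions and form a network in adult liver, and several fall in dedifferentiated liver cancers.

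The samples carried hepatocyte RNA in quantity. All 8 measured genes of a hepatocyte marker list (among them Alb, Ttr, Apoa1 and Asgr1) lay above the median level of all probe sets, 5.83 on the deposited log2 scale. The mean of the list was between 13.57 and 13.61 on the WT arrays and between 13.60 and 13.65 on the Alb/AEG-1 arrays. Of 8 measured bile duct markers, 7 lay below that median, with array means between 4.94 and 5.10. Macrophage markers had a positive difference in 10 of 10 genes (median 0.42), with array means of 6.61 to 7.04 in WT and 6.94 to 7.58 in Alb/AEG-1 tumours. Granulocyte markers were dim and had array means of 4.40 to 4.97 in WT and 4.51 to 4.93 in Alb/AEG-1 tumours. These are bulk samples, so fewer cells of a type and less RNA per cell cannot be told apart. Mtdh, the gene of the transgene's product, differed by 0.20 ± 0.13 (SE) at its brightest probe set with overlapping groups, and the labels do not say whether its probe sets match the transgene. Animal numbers were low for WT replicate 1 and the first pair of Alb/AEG-1 replicates and high for the other 3 mice, and the labels do not say what this means.

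None of the 9 factors differed between Alb/AEG-1 and WT tumours past the threshold. With limma, 0 of 17 member probe sets had a Benjamini-Hochberg adjusted p below 0.05, against 0.00442% of all probe sets tested, and the smallest member value was 0.631. At an unadjusted p below 0.05 there were also 0 of 17, against 8.06% of all probe sets. The 3 arrays of the groups overlapped in 17 of 17 member probe sets, while 14.7% of all probe sets had groups that did not overlap. The difference (Alb/AEG-1 minus WT, log2) was positive in 7 and negative in 10 member probe sets. Its median was -0.02, beside -0.01 over all probe sets. A p that misses the threshold does not show equal expression, and the 95% intervals of the differences ranged from narrow to very wide across the 9 genes.

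**Figure D1:**
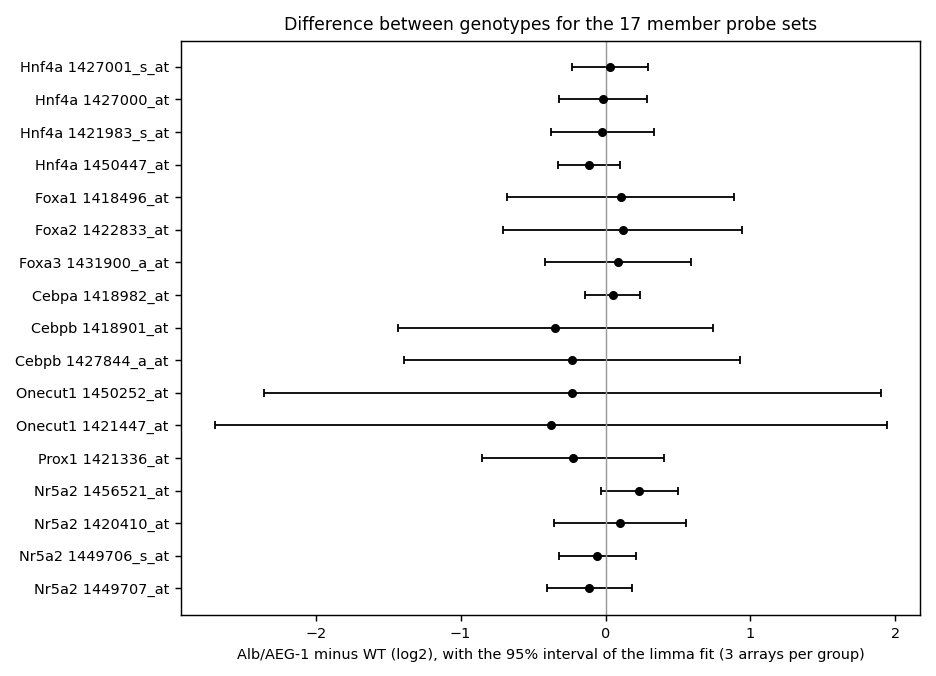
Difference between Alb/AEG-1 and WT tumours in log2 units (horizontal axis) for the 17 probe sets of the 9 factors, with the 95% interval of the limma fit on 3 arrays per group. All 17 intervals cross 0; that of Cebpa runs from -0.15 to 0.24, and that of the brighter Onecut1 probe set from -2.36 to 1.90.

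Hnf4a, the nuclear receptor at the centre of the network, spanned 1.26-fold across the 6 tumours at its brightest probe set. Its brightest probe set (1427001_s_at) read 11.42, 11.55 and 11.76 on WT replicates 1 to 3, and 11.67, 11.68 and 11.48 on Alb/AEG-1 replicates 1 to 3. Both the lowest and the highest value were on WT arrays, and the groups overlapped. The means were 11.58 ± 0.17 (SD, n = 3) and 11.61 ± 0.12, a difference of 0.03 ± 0.11 log2 (SE; limma adjusted p = 0.941). The 95% interval ran from 0.852-fold to 1.23-fold. The probe set type marks possible binding to related transcripts, as it does for 1421983_s_at below.

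The other Hnf4a probe sets differed by -0.02 ± 0.13 (1427000_at), -0.02 ± 0.15 (1421983_s_at) and -0.11 ± 0.09 (1450447_at). The sign of the first 3 turned when single arrays were left out. That of 1427001_s_at became -0.04 without WT replicate 1 and -0.004 without Alb/AEG-1 replicate 2. That of 1427000_at became 0.12 without WT replicate 3 and 0.003 without Alb/AEG-1 replicate 2, and that of 1421983_s_at became 0.11 without WT replicate 3 or Alb/AEG-1 replicate 2. For 1450447_at it stayed between -0.18 and -0.08. The 4 probe sets followed each other loosely over the 6 arrays, with Pearson's r between -0.30 and 0.69 for their 6 pairings, as a description. Which Hnf4a transcripts each probe set reads is not given in the sources used here.

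Cebpa, which encodes the C/EBP factor of the quiescent metabolic hepatocyte, was the steadiest of the 9 genes. It read 10.22, 10.26 and 10.15 in WT and 10.18, 10.27 and 10.33 in Alb/AEG-1 tumours. The lowest and the highest tumour were 1.13-fold apart, and the groups overlapped. The difference was 0.05 ± 0.08 log2 (SE, n = 3 per group; limma adjusted p = 0.873), with a 95% interval from 0.904-fold to 1.18-fold. Its sign stayed positive when any single array was left out (0.01 to 0.09).

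Cebpb, which encodes the C/EBP factor induced by cytokines and during regeneration, moved widely from tumour to tumour. Its brighter probe set (1418901_at) read 9.49, 11.28 and 10.77 in WT and 10.35, 9.51 and 10.65 in Alb/AEG-1 tumours, a range of 3.46-fold. WT replicate 1 and Alb/AEG-1 replicate 2 were low, and WT replicate 2 was the highest. The groups overlapped, with a difference of -0.35 ± 0.47 log2 (limma adjusted p = 0.831) and a 95% interval from 0.37-fold to 1.67-fold. The second probe set (1427844_a_at) read 7.68, 9.76 and 8.89 in WT and 8.80, 7.94 and 8.89 in Alb/AEG-1 tumours. It placed the same arrays lowest and highest (difference -0.23 ± 0.50).

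The value of Cebpb depended on single arrays. Without WT replicate 1 the difference of 1418901_at was -0.86 (unadjusted p = 0.0382 and adjusted p = 0.421 by limma), and without WT replicate 2 it was 0.04. Without Alb/AEG-1 replicate 2 it was -0.01. The second probe set gave -0.78 without WT replicate 1, 0.26 without WT replicate 2 and 0.07 without Alb/AEG-1 replicate 2. Both probe sets were higher on all 3 arrays of the higher animal numbers than on any array of the lower, by 1.12 and 1.04 log2 on average. Such a lack of overlap between the ranges was seen in 4 of 17 member probe sets and in 15.8% of all probe sets. Within the lower numbers Cebpb (1418901_at) was 0.44 higher in Alb/AEG-1 tumours, and among the higher numbers the difference was -0.38 (interaction -0.82, limma adjusted p = 0.962). The mean of the macrophage marker list was 7.04, 6.61 and 6.81 on WT replicates 1 to 3. On Alb/AEG-1 replicates 1 to 3 it was 6.94, 7.25 and 7.58. A part of macrophages in the Cebpb values was not tested.

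The balance of Cebpb over Cebpa shifts towards Cebpb when hepatocytes leave quiescence, and it was computed within each array from the brighter probe sets. Levels of different probe sets cannot be set against each other, so the sign of Cebpb minus Cebpa on an array is not read. Its difference between genotypes was -0.39 (exact 2-sided permutation p = 0.5, where 3 against 3 arrays allow no p below 0.1). Because Cebpa hardly varied, this value is close to that of Cebpb alone. Mice of the lower animal numbers gave a difference of 0.43 and those of the higher -0.50. It was -0.91 without WT replicate 1, -0.03 without WT replicate 2 and -0.06 without Alb/AEG-1 replicate 2.

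The 250 bases before the start sites of this family pair are shown because these genes differed widely in spread across the tumours. Sequences are from RefSeq (GRCm38.p6), written 5′ to 3′ on the gene's strand. Capitals mark the letters TATAAA, found on either strand in 12.4% of all 32851 listed promoter windows of this length and in 5 of the 14 windows listed for the 9 genes. Those 5 are windows of Cebpa, Foxa2, Foxa3, Prox1 and Nr5a2. Of these genes, Foxa2, Foxa3 and Prox1 varied widely, like Cebpb, and Cebpa did not. For the Nr5a2 probe sets the spread within genotypes was above that of 56.6% to 93.2% of all probe sets. Of the 3 windows listed for Foxa2, the match is in that at chr2:148045465-148045714 (minus strand), 208 to 203 bases before the start. A link of such matches with the spread was not tested. The Cebpa window (chr7:35119043-35119292, plus strand) has the match 30 to 25 bases before the start. The Cebpb window (chr2:167688665-167688914, plus strand) has none and a GC content of 81.6%, against 66.4% for Cebpa.
Cebpa: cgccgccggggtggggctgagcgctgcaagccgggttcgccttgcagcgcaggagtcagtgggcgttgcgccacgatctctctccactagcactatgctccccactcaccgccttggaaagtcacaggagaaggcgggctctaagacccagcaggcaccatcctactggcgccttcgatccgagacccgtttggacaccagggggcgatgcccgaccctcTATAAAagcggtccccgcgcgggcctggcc
Cebpb: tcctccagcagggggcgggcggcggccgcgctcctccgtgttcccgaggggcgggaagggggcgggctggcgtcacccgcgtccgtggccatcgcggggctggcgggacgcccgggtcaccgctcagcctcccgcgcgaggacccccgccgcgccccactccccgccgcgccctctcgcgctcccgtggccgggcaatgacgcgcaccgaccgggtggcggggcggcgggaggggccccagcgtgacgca

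**Figure D2:**
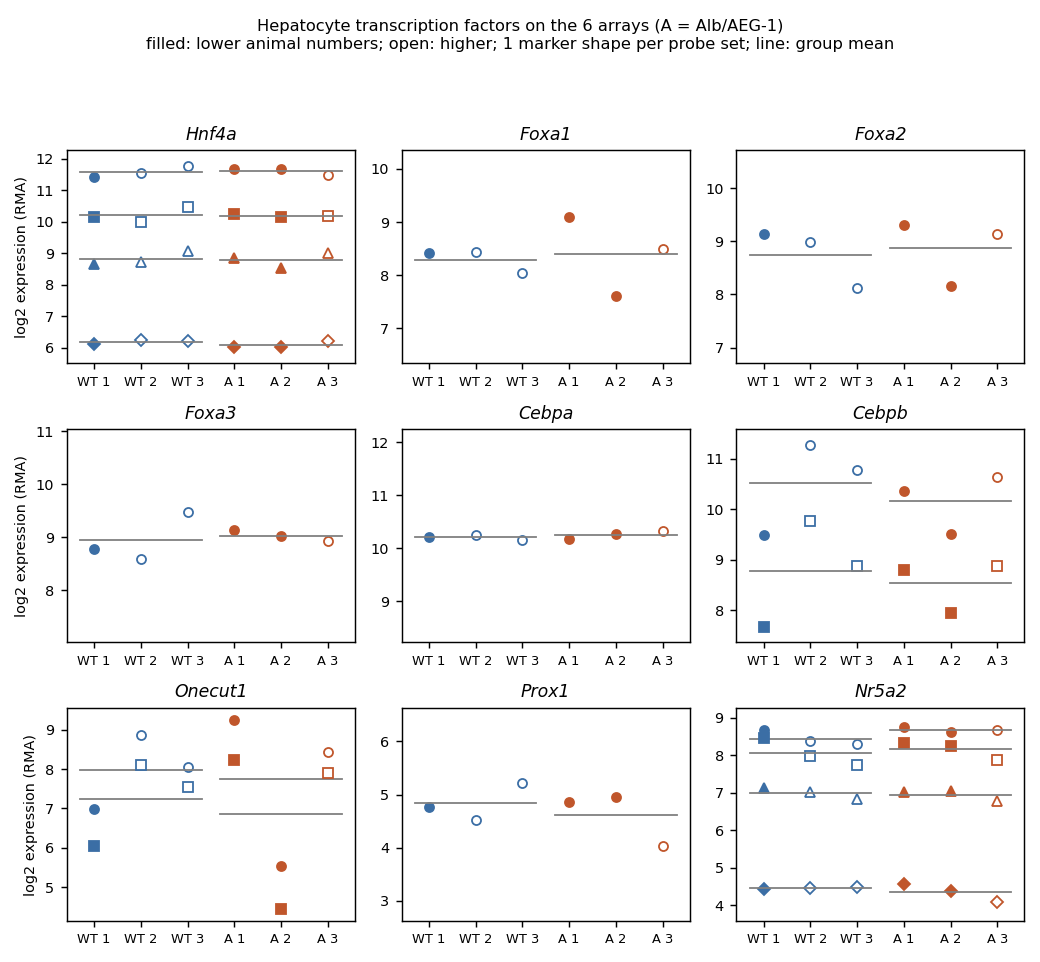
Log2 expression (vertical axis, RMA scale) of the 9 factors on the 3 WT and 3 Alb/AEG-1 arrays (A), with 1 marker shape per probe set, grey lines at the group means, filled markers for lower and open markers for higher animal numbers. Cebpa lies nearly flat between 10.15 and 10.33, while the brighter Onecut1 probe set runs from 5.54 to 9.25, both ends in Alb/AEG-1 tumours.

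Onecut1, which encodes the cut-homeobox factor also called HNF6, had the widest swing of the 9 genes. Its brighter probe set (1450252_at) read 7.0, 8.86 and 8.06 in WT tumours and 9.25, 5.54 and 8.45 in Alb/AEG-1 tumours. Alb/AEG-1 replicate 1 was the highest and Alb/AEG-1 replicate 2 the lowest of all, 13.1-fold apart. The second probe set (1421447_at) gave 6.04, 8.11 and 7.56 in WT and 8.23, 4.44 and 7.90 in Alb/AEG-1 tumours, with the same arrays highest and lowest and Pearson's r = 0.99 between the probe sets over 6 arrays.

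With such a spread the genotype difference of Onecut1 could not be fixed even in sign. It was -0.23 ± 0.91 log2 (SE, n = 3 per group; limma adjusted p = 0.948) for 1450252_at, with a 95% interval from 0.195-fold to 3.73-fold, and -0.38 ± 0.99 for 1421447_at. Without Alb/AEG-1 replicate 2 the differences were 0.87 and 0.83, and without WT replicate 2 they were 0.22 and 0.06. Without Alb/AEG-1 replicate 1 they were -0.98 and -1.06. WT replicate 1 was the second lowest tumour, so low Onecut1 occurred in both genotypes. The low tumours and the highest one all had lower animal numbers. On average the higher numbers read 1.19 (1450252_at) and 1.62 (1421447_at) log2 above the lower, with overlapping ranges. A part of the animal number range in this spread was not tested.

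Onecut1 stood near the edge of the whole array for tumour-to-tumour variation. The pooled within-group SD of its probe sets was 1.53 and 1.67 log2, and 24 and 17 of the 22626 probe sets had a larger one. For Cebpb it was 0.78 and 0.83, and for Foxa2 and Foxa1 it was 0.58 and 0.55, each above at least 98.3% of probe sets. For Cebpa it was 0.07, above that of 10.2% of probe sets. For Hnf4a it was 0.14, 0.18, 0.23 and 0.09 from the brightest to the dimmest probe set, above that of 56.3%, 72.9%, 84.7% and 23.8% of probe sets. The median was 0.31 over the 17 member probe sets and 0.13 over all probe sets. This orders spreads of log2 values, which also depend on how bright a probe set is.

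**Figure D3:**
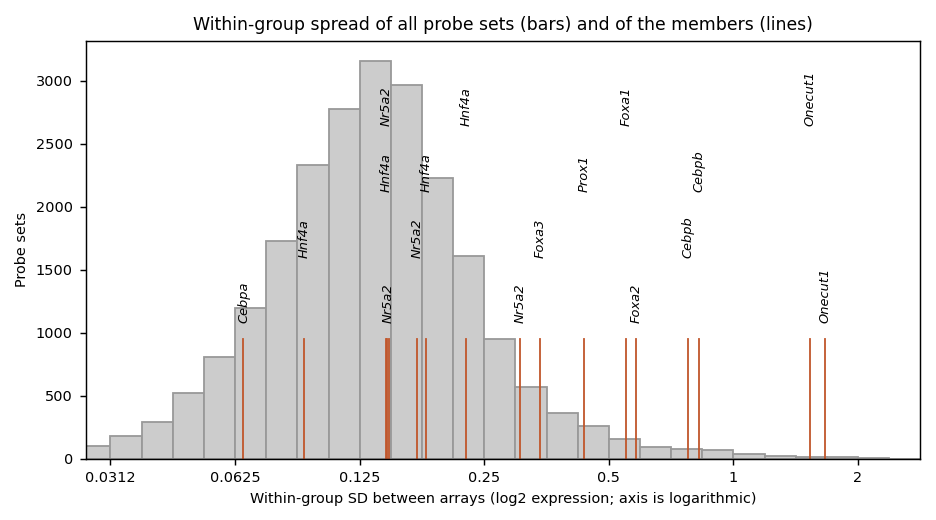
Histogram of the within-group SD between arrays (log2 units, logarithmic axis) for all 22626 probe sets, with a line for each of the 17 member probe sets. Cebpa at 0.07 lies left of the peak, and the Onecut1 probe sets at 1.53 and 1.67 lie in the far right tail.

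The forkhead genes Foxa1 and Foxa2, whose products open chromatin ahead of other factors, also varied more within than between genotypes. Foxa1 read 8.41, 8.43 and 8.04 in WT and 9.09, 7.61 and 8.50 in Alb/AEG-1 tumours. The Alb/AEG-1 arrays held both extremes, as they did for Onecut1. The difference was 0.10 ± 0.34 log2 (SE; limma adjusted p = 0.935), with a 95% interval from 0.625-fold to 1.85-fold. It was 0.50 without Alb/AEG-1 replicate 2 (unadjusted p = 0.0499, adjusted p = 0.666 in limma). It was -0.24 without Alb/AEG-1 replicate 1 and -0.02 without WT replicate 3.

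Foxa2 read 9.14, 8.99 and 8.12 in WT and 9.30, 8.17 and 9.13 in Alb/AEG-1 tumours. Here 1 tumour of each genotype, WT replicate 3 and Alb/AEG-1 replicate 2, lay below the other 4. The difference was 0.12 ± 0.35 log2 (limma adjusted p = 0.929). It turned negative without WT replicate 3 (-0.19), Alb/AEG-1 replicate 1 (-0.10) or Alb/AEG-1 replicate 3 (-0.01). Mice of the lower animal numbers gave -0.40 and those of the higher 0.58 (interaction 0.98, limma adjusted p = 0.964).

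Foxa3, the family member most abundant in adult liver, also varied more within than between genotypes but ranked the tumours in another order. It read 8.78, 8.58 and 9.48 in WT and 9.13, 9.03 and 8.94 in Alb/AEG-1 tumours, so that WT replicate 3, lowest for Foxa2, was highest for Foxa3. The Alb/AEG-1 values lay inside the WT range. The difference was 0.08 ± 0.22 log2 (limma adjusted p = 0.918). It was 0.35 without WT replicate 3 (unadjusted p = 0.0197, adjusted p = 0.842) and -0.10 without WT replicate 2.

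No pair of the 9 factors passed a test of correlation across the 6 tumours. Pearson's r was 0.88 for Foxa1 with Foxa2 (Spearman's rho 0.77; exact permutation p = 0.0139 and p = 0.103). For Foxa1 with Onecut1, r was 0.82 (rho 0.89; exact permutation p = 0.0472 and p = 0.0333). After adjustment over all 36 pairs of members, 0 passed in r or rho, with smallest exact adjusted p of 0.5 and 0.6. Unadjusted, 3 pairs had an exact p below 0.05 in r and 2 in rho. Leaving out the 2 arrays with the most extreme Foxa1, both Alb/AEG-1, r with Onecut1 was 0.12 and r with Foxa2 was 0.98 on 4 arrays. Those arrays were chosen by Foxa1 itself and only 4 remained, so these values of r are given as a description. The third pair in r was Cebpa with Prox1 (r = -0.84, exact p = 0.0375; rho = -0.66, exact p = 0.175), with r = -0.21 without the 2 arrays most extreme in Cebpa. The second pair in rho was Foxa2 with Nr5a2 (rho = 0.94, exact p = 0.0167; r = 0.57, exact p = 0.182), with r = 0.92 without the 2 arrays most extreme in Foxa2. Onecut1 with Cebpb had r = 0.79 and rho = 0.54 (exact permutation p = 0.0639 and p = 0.297). Without the 2 arrays most extreme in Cebpb, r was -0.20.

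The start regions of these genes are shown because Onecut1, Foxa1 and Foxa2 varied most among the developmental factors and bind each other's genes in liver. Capitals mark a FOXA motif (TGTTTAC or TGTTTGC) or a ONECUT motif (ATTGATT or ATCGATT), searched on both strands. In windows of 250 bases these occur in 7.29% and 2.99% of the 32851 listed promoters, and each occurs in 2 of the 14 windows listed for the 9 genes. No match overlapped another. The Onecut1 window (chr9:74861671-74861920, plus strand) holds neither, and the first Foxa2 window listed (chr2:148046970-148047219, minus strand) holds a ONECUT motif 213 to 207 bases before the start. For Foxa1 (chr12:57546236-57546262, minus strand) and the first start listed for Hnf4a (chr2:163506787-163506813, plus strand), 27 bases around a FOXA and a ONECUT match are given. The Foxa1 stretch lies inside the annotated gene, which runs from 57540628 to 57548029. The Hnf4a stretch reaches into its annotated gene, which begins at 163506811. A match is a run of letters, not a measured site.
Onecut1: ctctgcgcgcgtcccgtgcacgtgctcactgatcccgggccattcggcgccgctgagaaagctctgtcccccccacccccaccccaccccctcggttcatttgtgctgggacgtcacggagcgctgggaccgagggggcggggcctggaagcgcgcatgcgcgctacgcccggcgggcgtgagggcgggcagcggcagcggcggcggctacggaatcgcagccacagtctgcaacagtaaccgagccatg
Foxa2: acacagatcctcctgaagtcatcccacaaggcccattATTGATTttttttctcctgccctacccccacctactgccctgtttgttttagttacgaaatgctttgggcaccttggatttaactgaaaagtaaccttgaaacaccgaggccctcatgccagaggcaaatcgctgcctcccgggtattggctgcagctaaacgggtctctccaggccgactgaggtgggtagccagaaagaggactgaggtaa
Foxa1: atactgctttGTAAACAaagtgagggc
Hnf4a: tgattagaagAATCAATaagataaccg

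The same search for TTGCNNAA (C/EBP) found a match in 1 of the 14 windows, a Nr5a2 window, and 9.56% of all listed promoters hold one. CAAAGTCCA or CAAAGGTCA (HNF4) and TGACGTCA or TGACGCAA (cyclic AMP response) were in 0 of the 14 windows. They occur in 0.807% and 1.97% of all listed promoters.

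Nr5a2, which encodes the liver receptor homologue that supports bile acid synthesis, had the smallest p of the members without reaching the threshold. Its brightest probe set (1456521_at) read 8.67, 8.38 and 8.29 in WT and 8.76, 8.63 and 8.66 in Alb/AEG-1 tumours. The Alb/AEG-1 values were tight and lay high, but WT replicate 1 fell among them. The means were 8.45 ± 0.20 (SD, n = 3) and 8.68 ± 0.07, a difference of 0.23 ± 0.11 log2 (SE; unadjusted p = 0.0761, adjusted p = 0.631 in limma). Its 95% interval ran from 0.978-fold to 1.41-fold.

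The other Nr5a2 probe sets did not repeat this difference. They differed by 0.10 ± 0.20 (1420410_at), -0.06 ± 0.11 (1449706_s_at, which may bind related transcripts) and -0.11 ± 0.13 (1449707_at, below the median level). Without WT replicate 1 the difference of 1456521_at was 0.34 (unadjusted p = 0.00994 and adjusted p = 0.351 by limma), and without WT replicate 3 it was 0.16. Mice of the lower animal numbers gave 0.02 and those of the higher 0.33. Without WT replicate 3, 1420410_at turned to -0.06. Without WT replicate 1 or Alb/AEG-1 replicate 3, 1449706_s_at turned to 0.01 and 0.03, and 1449707_at gave 0.01 without Alb/AEG-1 replicate 3.

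Prox1, whose product represses NR5A2 and HNF4A activity and also marks lymphatic endothelium, was dim. Its probe set read 4.77, 4.52 and 5.22 in WT and 4.86, 4.95 and 4.03 in Alb/AEG-1 tumours, all below the median of all probe sets. Alb/AEG-1 replicate 3 was the lowest. The difference was -0.22 ± 0.27 log2 (limma adjusted p = 0.811). It was 0.07 when Alb/AEG-1 replicate 3 was left out. Of 6 measured lymphatic endothelial markers, 3 had a positive and 3 a negative difference. The list means were 6.05 to 6.13 in WT and 5.98 to 6.23 in Alb/AEG-1 tumours. The part of these markers' cells in the Prox1 values was not tested.

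The genes around these factors were set beside them by 9 lists of partners and targets, which were drawn up with earlier results of these data known. Their counts are therefore not independent evidence. The lists held 129 measured genes other than the members, each read by its brightest probe set. Of these, 0 passed adjusted over all probe sets. At an unadjusted p below 0.05 there were 17 (13.2%), of which Alb/AEG-1 tumours had 11 at a higher level and 6 at a lower one. Over all 12393 genes the share was 8.33%, 3.86% higher and 4.47% lower. The median difference of the 129 genes was -0.03, beside -0.01 over all genes.

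At that threshold, 1 of 26 other hepatocyte regulators was higher and 1 lower (median -0.03). Ppara, the fatty acid receptor of fasting metabolism, read 10.20, 10.79 and 10.32 in WT and 9.95, 9.72 and 9.94 in Alb/AEG-1 tumours, with groups that did not overlap (difference -0.56 ± 0.16, limma adjusted p = 0.596). Srebf1, a lipogenic factor, read 10.82, 10.69 and 10.13 in WT and 10.95, 11.06 and 11.17 in Alb/AEG-1 tumours, also without overlap (0.52 ± 0.18). Mlxipl, the glucose-responsive partner of lipogenesis, differed by -0.24 ± 0.10.

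Among 12 C/EBP relatives and dimer partners, 1 gene was lower, the leucine zipper gene Batf2 (-0.30 ± 0.11), and 0 were higher. Ddit3, which encodes the C/EBP antagonist CHOP, differed by 0.26 ± 0.24, and Trib2, which promotes C/EBP alpha degradation, by 0.10 ± 0.12, read by an s_at probe set. Of 16 measured coactivators and corepressors, 0 passed an unadjusted p below 0.05 in limma. The coactivator gene Ppargc1a of HNF4A differed by -0.57 ± 0.33, the corepressor gene Tle1 by 0.37 ± 0.19 and the deacetylase gene Sirt1 by -0.20 ± 0.12.

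At an unadjusted p below 0.05, 2 of 24 HNF4A targets were higher and 1 lower (median -0.05, with 7 positive and 17 negative). Apoc2, the activator of lipoprotein lipase, read 11.91, 10.91 and 11.66 in WT and 12.82, 13.16 and 12.35 in Alb/AEG-1 tumours, without overlap (1.28 ± 0.29, limma adjusted p = 0.596). The apolipoprotein gene Apoa4 differed by 1.51 ± 0.23 and the lipid transfer gene Mttp by -0.49 ± 0.14. Apoa4 was read by an x_at probe set, which may bind related transcripts.

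At the same threshold, 5 of 23 C/EBP targets were higher and 1 lower, with a median of -0.03. The highest value was that of Lcn2 and the lowest that of Orm3 (-0.47). Lcn2, which encodes a siderophore-binding lipocalin, read 5.05, 4.75 and 5.27 in WT and 6.35, 8.44 and 7.26 in Alb/AEG-1 tumours (2.33 ± 0.46). Saa1 differed by 1.10 ± 0.33 and the constitutive Saa4 by -0.41 ± 0.10, all 3 without overlap. Alb/AEG-1 replicate 2, where Lcn2 was highest, was among the lowest arrays for Cebpb. WT replicate 1, the lowest for Cebpb, had Lcn2 at 5.05. Alb/AEG-1 replicate 3 had Lcn2 at 7.26 with Cebpb at 10.65 (1418901_at). A relation of Lcn2 to Cebpb was not tested.

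Of 16 measured FOXA targets, 1 was higher and 0 lower at that threshold, with 5 positive and 11 negative (median -0.07). The higher one was Afp, the fetal serum protein, at 5.37, 5.48 and 4.92 in WT and 7.46, 9.57 and 7.69 in Alb/AEG-1 tumours (2.99 ± 0.51, limma adjusted p = 0.467). The tumour with the most Afp, Alb/AEG-1 replicate 2, was the one with the least Foxa1 and Onecut1. Alb/AEG-1 replicate 1, with the most Foxa1 and Onecut1, also had more Afp (7.46) than any WT tumour. A relation of Afp to these factors was not tested. Tdo2, a tryptophan-degrading enzyme gene, differed by 0.15 ± 0.10 and the export pump gene Abcc2 by -0.28 ± 0.13, the latter read by an s_at probe set.

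Of 17 measured NR5A2 and PROX1 targets, 1 was higher at an unadjusted p below 0.05 (Ahsg, the fetuin gene, 0.22 ± 0.09, without overlap) and 0 were lower. Cyp8b1, the sterol 12-hydroxylase gene of bile acid synthesis, read 10.93, 10.50 and 10.48 in WT and 10.24, 10.54 and 10.21 in Alb/AEG-1 tumours (-0.31 ± 0.15), and Fads1, a desaturase gene, differed by -0.17 ± 0.11. Of 9 measured ONECUT1 targets that are not members, 1 was higher (Ccnd1, the G1 cyclin, 0.46 ± 0.13, without overlap) and 0 were lower. Cyp3a13, a cytochrome P450 gene, differed by -0.68 ± 0.46.

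Of 11 measured fetal liver genes, 2 were higher and 2 lower at that threshold, with a median of 0.01. Beside Afp, these included Igf2bp3 (-0.32 ± 0.10) and Igf2bp1 (-0.24 ± 0.10), which encode fetal RNA-binding proteins and were dim in both groups. Of the 11 genes, 8 lay below the median level of all probe sets.

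**Figure D4:**
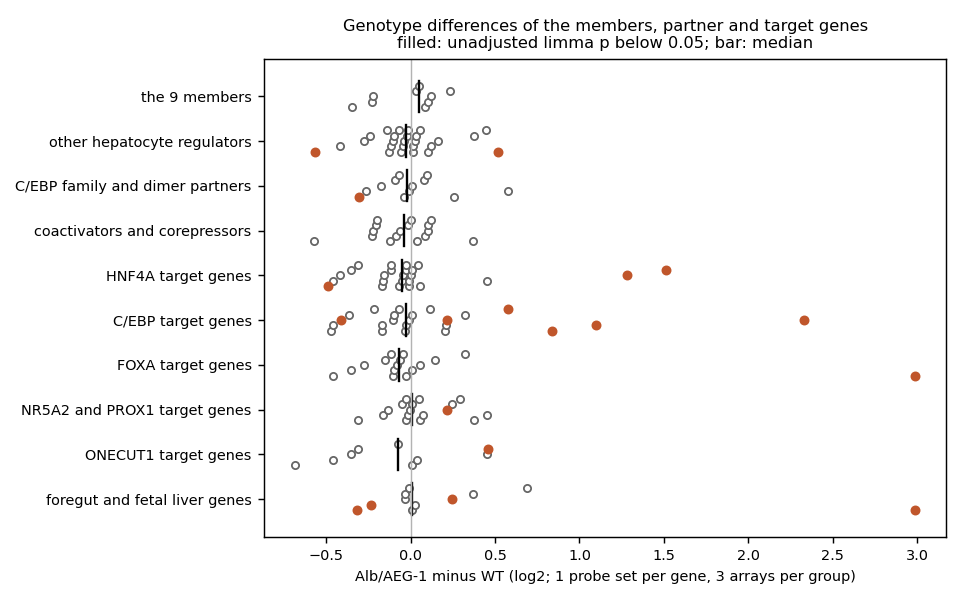
Genotype difference (Alb/AEG-1 minus WT, log2, horizontal axis) of each of the 9 members and of each measured gene of the 9 partner and target lists, with 1 probe set per gene, a bar at the median and filled points for an unadjusted limma p below 0.05. The members lie between -0.35 and 0.23 with no filled point, while Afp reaches 2.99 and Lcn2 2.33.

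The genes that followed each member most closely over the 6 arrays were found among 7007 other genes at or above the median level. With 6 arrays normalized together and so many candidates, high values arise easily, and they are given as a description. For Hnf4a, the nearest were Arfgef1, Ndufv2 and Dennd11 (Pearson's r = 0.96 each, r at the brightest probe sets). For Onecut1 it was Tbc1d8 (r = 0.996), and for Cebpb Golim4 (r = 0.99). For Foxa1 it was Smarcc1, a chromatin remodelling subunit gene (r = 0.99), for Foxa3 Otud6b (r = 0.98), for Cebpa Tap2 (r = 0.98), for Prox1 Pag1 (r = 0.98) and for Nr5a2 Rabif (r = 0.997, an s_at probe set).

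Foxa2 had the neighbour with the largest swing, Phlda1 (r = 0.99). Phlda1 read 12.06, 11.74 and 9.60 in WT and 12.15, 9.56 and 11.82 in Alb/AEG-1 tumours. The tumours low in Foxa2, WT replicate 3 and Alb/AEG-1 replicate 2, were more than 2 log2 units below the other 4 for this gene. Its genotype difference was 0.04 (limma adjusted p = 0.99).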

How the data were processed

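Total RNA (5 µg) of tumours from 6 mice was labelled and hybridized to Affymetrix arrays, per the labels' protocols. The deposited values are log2 expression levels made by the authors with RMA, per the submitters' processing notes, with no version given there. RMA makes array distributions alike, which hides any shift common to most genes. Array medians differed by at most 0.0289. Of 22690 probe sets, 64 controls were left out. Symbols came from the platform annotation, updated by gene ID to RefSeq (GRCm38.p6).

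Groups came from the genotype labels, and animal numbers from the titles. Replicates were numbered in accession order. Differences were fitted on all 22626 probe sets with limma 3.58.1 in R 4.3.3 (lmFit, eBayes, 2-sided), adjusted by Benjamini-Hochberg at 0.05, without covariates. Intervals are 95% intervals of that fit. The fit was run on 10 simulated data sets with independent normal noise and the fitted spreads shuffled among probe sets. It called 81.6% of 2-fold and 96.9% of 4-fold changes, and 5.14% of its calls were false. Because the spreads were shuffled, these shares do not apply to single genes such as Onecut1. The number of arrays, 3 per group, limits the precision.

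The members, the 9 lists and the 7 marker lists were chosen with earlier results of these data known. Text names all member probe sets, the 3 genes with the smallest p per pathway list, Mtdh and the nearest genes by Pearson's r. Marker genes, single arrays, the pairs of members, the spread ranks and the promoter motifs were singled out after values were seen. Alternatives were other moderation, normalization, centring, probe set filters, gene summaries, weighted arrays, a term for the animal number range and each array left out. Plots used matplotlib 3.10.9. Promoter windows came from RefSeq and matched all 9 members.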

Additional observations from a re-analysis of the deposited data

How the results depend on the processing

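In all alternatives run, 0 member probe sets passed adjusted over all probe sets, and the smallest adjusted p was 0.351. The count at an unadjusted p below 0.05 was 0 in each alternative with 6 arrays and 0 to 2 with 1 array left out: Cebpb (1418901_at) and Nr5a2 (1456521_at) without WT replicate 1, Foxa3 without WT replicate 3 and Foxa1 without Alb/AEG-1 replicate 2. Of 251 recomputed differences 31 changed sign, and 3 of the 17 probe sets kept theirs throughout (Cebpa, Hnf4a 1450447_at and Nr5a2 1456521_at). With a term for the animal number range the sign turned for Cebpb (0.030 and 0.13), Onecut1 (0.19 and 0.18), Hnf4a 1421983_s_at (0.066) and Nr5a2 1420410_at (-0.068). With 1 array left out, the differences ran from -0.86 to 0.038 and -0.78 to 0.26 for Cebpb (1418901_at, 1427844_a_at), from -0.98 to 0.87 and -1.06 to 0.83 for Onecut1 (1450252_at, 1421447_at), from -0.24 to 0.50 for Foxa1, from -0.19 to 0.47 for Foxa2, from -0.100 to 0.35 for Foxa3 and from -0.39 to 0.067 for Prox1. For Hnf4a they ran from -0.045 to 0.12 (1427001_s_at), -0.12 to 0.12 (1427000_at) and -0.12 to 0.11 (1421983_s_at), and for Nr5a2 from -0.059 to 0.29 (1420410_at), -0.14 to 0.025 (1449706_s_at) and -0.22 to 0.014 (1449707_at). With the probe sets of each gene averaged, Hnf4a turned to -0.029. The cause was not tested. Cebpb minus Cebpa was 0.43 within the lower animal numbers and between -0.91 and -0.03 with 1 array left out. The list count lay between 12 and 21 with 1 array left out. The values were already log2, so that alternative was not run. No paired analysis was possible because the labels give no replicate numbers shared by the groups. For Onecut1, Cebpb, Foxa1 and Foxa2 the spread between 3 arrays sets what can be seen. Prox1 and Nr5a2 1449707_at are dim, where RMA can narrow differences, which was not tested here.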
